A study of Mus musculus with 4 samples.

Results

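The network of *Myc*, *Max* and the Mxd family was read on the arrays as 9 genes: *Myc*, *Mycn*, *Mycl1*, *Max*, *Mxd1*, *Mxd3*, *Mxd4*, *Mxi1* and *Mnt*. Every non-control probe whose gene name was one of these was taken, whatever its signal, which gave 9 of the 30175 gene names and 11 of the 39429 non-control probes on the array. *Mxd1* and *Mxd4* had 2 probes each, and each of the other genes had 1. 8 probes of 6 genes (*Myc*, *Max*, *Mxd1*, *Mxd3*, *Mxd4* and *Mnt*) were well above background on all 4 arrays, while the probes of the remaining 3 genes (*Mycn*, *Mycl1* and *Mxi1*) were well above background on none.

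The cells were NIH-3T3:Per2-Luc, an established mouse fibroblast line that carries a luciferase reporter driven by the *Per2* promoter, a promoter of the circadian clock. A cOS-pulse, that is 5 mM H2O2 for 10 min, was given to the cells of 3 arrays, from which RNA was analyzed 4 h, 20 h and 32 h later. The control (0 mM H2O2, fresh medium) had 1 array, which its label places at 4 h, so the ratios at 20 h and 32 h were taken against a control of another hour, and time in culture and the pulse cannot be told apart there. All groups carried the reporter, and each condition was 1 array of 1 slide, with no replicate and therefore no test and no p-value.

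Myc is a basic helix-loop-helix leucine zipper transcription factor that binds DNA only as a dimer with Max, at the E-box sequence CACGTG, and drives genes of growth, nucleotide synthesis and ribosome production. Max is the shared partner: it also dimerizes with the Mxd proteins and with Mnt, which bring Sin3 and histone deacetylases to the same E-boxes and hold transcription down. Myc is an immediate early gene product of growing fibroblasts with a short-lived mRNA and protein, whereas *Mxd1* and *Mxd4* are known from cells that leave the cycle, *Mxd3* from cells in S phase, and *Mnt* from nearly all cells.

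Several of these genes carry the E-box in their own promoters, and the windows are shown because Myc, Max, Mxd and Mnt dimers all read this sequence. RefSeq promoter windows of GRCm38.p6, from 250 bases before to 50 bases after the start of transcription, were found for 8 of the 9 genes (*Mycl1* under its present symbol *Mycl*), in 10 windows, and not for *Myc*. The E-box, a palindrome searched as CACGTG, lay in 3 windows, those of *Max*, *Mxd4* and *Mnt*, and in 7.15% of all 32851 windows. The 3 stretches follow, 5′ to 3′ on the strand of the gene, with the E-box in capitals:
Max, chr12:76962221-76962276, minus strand: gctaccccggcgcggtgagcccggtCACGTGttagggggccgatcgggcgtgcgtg
Mxd4, chr5:34187899-34187954, minus strand: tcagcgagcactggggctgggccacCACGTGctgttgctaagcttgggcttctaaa
Mnt, chr11:74830776-74830831, plus strand: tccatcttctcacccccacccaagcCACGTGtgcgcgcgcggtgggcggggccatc
The E-box of *Max* began at position -3 from the start of transcription, that of *Mnt* at -123 and that of *Mxd4* at -219. The core of the antioxidant response element, to which Nrf2 binds after oxidative stress, was searched as TGACNNNGC on both strands and lay in 4 member windows (*Max*, *Mxd1*, *Mxd3* and *Mxi1*) and in 12.39% of all windows. Such matches describe letters in a window, not binding.

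The 2 probes of *Mxd4* are shown at the ends where they meet, since they overlap by 13 bases (capitals) and are no independent measurements of the gene:
Mxd4 probe 1, last 30 of 60 bases: atcattccagaagtattAAATATCATTTCT
Mxd4 probe 2, first 30 of 60 bases: AAATATCATTTCTacaaatctcggcaggat
The 2 probes of *Mxd1* did not overlap and started 1863 bases apart. In the mm9 coordinates of the scanner files the *Myc* probe lay at chr15:61821417-61821476, the *Max* probe at chr12:78038272-78038331, the *Mxd1* probes at chr6:86599053-86599112 and chr6:86597190-86597249, and the *Mxd3* probe at chr13:55427000-55427059. The *Mxd4* probes lay at chr5:34519323-34519382 and chr5:34519276-34519335, and the *Mnt* probe at chr11:74658915-74658974. An mm9 annotation was not used here, so the exon or UTR under each probe is not given.

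Signals are the background-subtracted intensities of the scanner software, and each array was scaled by its 75th percentile before ratios were taken on the log2 scale. The error given with a log2 ratio is that of the 2 spots from the scanner software and leaves out any spread between cultures. Between 52.7% and 59.1% of probes were well above background per array. At 4 h the median log2 ratio of all 20391 probes measured on both arrays was 0.17, with 60.2% of them above 0, and other scalings lowered this median by 0.12 to 0.40. At 20 h and 32 h it was -0.0035 and -0.0065. Values of the members at 4 h are therefore also given relative to the median of all probes. The 8 fibroblast markers checked were detected on all 4 arrays, with summed signals of 721591 in the control, 517253 at 4 h, 815245 at 20 h and 746317 at 32 h. Of 14 markers of other cell types, 5 (*Krt14*, *Pecam1*, *Kdr*, *Cd68* and *Cd3e*) were detected on all arrays, and *Krt5*, *Cdh5*, *Rbfox3* and *Syt1* on some. The remaining 5 (*Epcam*, *Cdh1*, *Ptprc*, *Myod1* and *Ckm*) were detected on none. The summed signals of the 14 were 4905, 6348, 7900 and 6821 in the same order of arrays, and the part of these shifts in the results was not tested. In such bulk RNA, fewer cells that express a gene and less RNA per cell cannot be told apart.

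At 4 h after the cOS-pulse the repressor partners of Max lay on both sides of the control. Of the 8 measured probes, both of *Mxd1* and that of *Mnt* exceeded the control by 2-fold or more (3 probes, against 11.1% of all probes), and that of *Mxd3* fell short of it by 2-fold or more (1 probe, against 8.13% of all probes). Of the 20391 probes measured on both arrays, as the 8 member probes were, 1760 were at least 2-fold higher and 1616 lower. *Max* was higher by less than 2-fold, and *Myc* lay within the bulk of all probes. Both *Mxd4* probes lay below the median of all probes, with 23.4% and 21.2% of measured probes at or below them. At 20 h, with the 75th percentile scaling, only probe 2 of *Mxd1* remained at least 2-fold higher (1.35% of all probes; probe 1 passed too with spike-in scaling or none) and no member was 2-fold lower (3.3% of all probes). At 32 h it was again probe 2 of *Mxd1* that was higher (2.06% of all probes), joined by probe 1 under those same scalings, with no member lower (2.59% of all probes). Of the 20447 probes measured on both arrays at 20 h, 144 were higher and 420 lower. Of the 19969 at 32 h, 209 were higher and 299 lower.

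**Figure D1:**
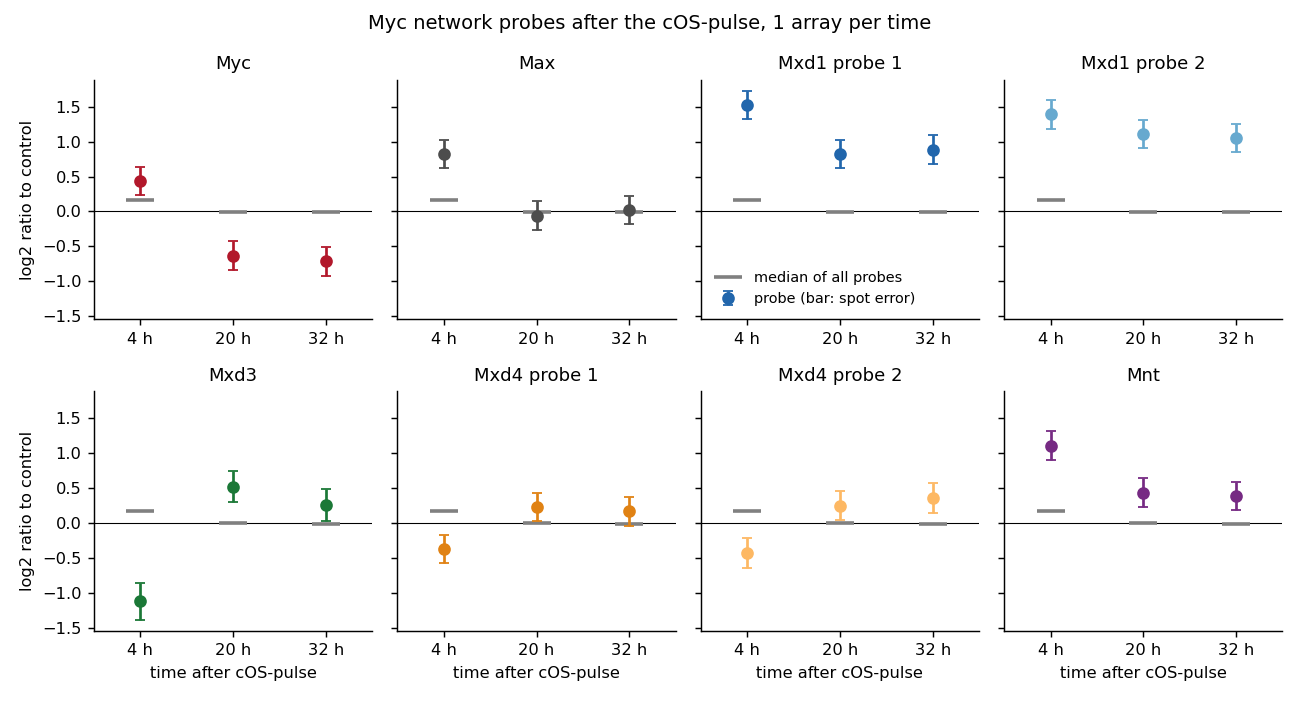
Log2 ratio to the control (vertical axis) of the 8 member probes well above background, at 4 h, 20 h and 32 h after the cOS-pulse, 1 array each. Bars are the error of the 2 spots and grey dashes the median of all measured probes (0.17 at 4 h); *Mxd1* stays above the control at all 3 times, *Myc* moves from 0.43 to -0.63 and -0.72, and *Mxd3* goes from -1.12 to 0.52 and 0.26.

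*Myc* itself had a signal of 3895 in the control, 4330 at 4 h, 3159 at 20 h and 2685 at 32 h. The 4 h array was the highest and the 32 h array the lowest, before and after scaling. Its log2 ratio to the control was 0.43 ± 0.20 (spot error, 1 array per condition) at 4 h, which is 0.26 above the median of all probes, and 30.9% of measured probes lay at or above it. Over the 6 scalings this 4 h value ranged from 0.031, with spike-in controls, to 0.43. At 20 h the log2 ratio was -0.63 ± 0.20 and at 32 h -0.72 ± 0.20, so that 4.84% and 3.37% of all measured probes lay at or below it. Neither value reached 2-fold, and both stayed below 0 under all 6 scalings, from -0.65 to -0.30 at 20 h and from -0.72 to -0.54 at 32 h. Between the pulsed arrays *Myc* was 2.10-fold higher at 4 h than at 20 h and 2.22-fold higher than at 32 h, comparisons that leave out the control. On the log2 scale these differences were 1.07 and 1.15, but 0.46 and 0.59 with spike-in scaling and 0.45 and 0.69 without scaling. With scaling by the median they were 0.60 and 0.76. They were 0.96 and 1.03 with the 75th percentile of probes detected on all arrays, and 0.98 and 1.05 with quantile normalization. The 2-fold difference from 20 h was thus lost under every other scaling. That from 32 h was lost with spike-in scaling, with the median and without scaling.

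*Max*, the partner that all the others share, had signals of 6142 in the control, 8920 at 4 h, 7408 at 20 h and 7059 at 32 h. The 4 h array stood above the other 3. The log2 ratio at 4 h was 0.82 ± 0.20, or 0.65 above the median of all probes, with 12.9% of probes at or above it, and it ranged from 0.42 to 0.82 over the scalings. At 20 h and 32 h it was -0.06 ± 0.20 and 0.02 ± 0.20, both smaller than the spot error, and the sign at 20 h turned under 3 of the 5 other scalings.

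*Mxd1*, which encodes a repressor partner of Max induced in cells that differentiate, was the member that lay furthest above the control. Probe 1 had signals of 1501 in the control, 3557 at 4 h, 3337 at 20 h and 3133 at 32 h. Probe 2 had signals of 720, 1553, 1956 and 1691 in the same order. With both probes the control was the lowest of the 4 arrays. The log2 ratios at 4 h were 1.53 ± 0.20 (2.88-fold) and 1.39 ± 0.21 (2.62-fold), with 2.79% and 3.59% of all measured probes at or above them. Relative to the median of all probes the 2 probes were 2.56-fold and 2.33-fold higher at 4 h. At 20 h the log2 ratios were 0.82 ± 0.20 and 1.11 ± 0.21, with 1.30% and 0.46% of probes at or above them. At 32 h the log2 ratios were 0.88 ± 0.20 and 1.05 ± 0.21, with 1.53% and 0.88%. Against the whole array *Mxd1* therefore ranked higher at the late times than at 4 h, although its ratios were smaller. For probe 2 the ratio was larger at 20 h and 32 h than at 4 h with spike-in scaling, with scaling by the median (1.21 and 1.08 against 1.03) and without scaling (1.44 and 1.23 against 1.11). The probes differed by 0.14 at 4 h, -0.29 at 20 h and -0.17 at 32 h (probe 1 minus probe 2, log2), and only at 4 h did both pass 2-fold with the 75th percentile. With spike-in scaling probe 2 was at 0.99 at 4 h, while both probes passed 2-fold at 20 h (1.02 and 1.31) and at 32 h (1.04 and 1.21), and without scaling both passed at all 3 times.

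*Mnt*, the repressor partner found in most cells, had signals of 10607 in the control, 18838 at 4 h, 18050 at 20 h and 15742 at 32 h. Here too the control was the lowest array. The log2 ratio at 4 h was 1.11 ± 0.20 (2.16-fold), and relative to the median of all probes it was 0.94 (1.92-fold). The 2-fold call at 4 h rested on the scaling, with a range of 0.71 to 1.11 over the scalings. At 20 h and 32 h the log2 ratios were 0.44 ± 0.20 and 0.39 ± 0.20, above 0 under every scaling tried.

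*Mxd3* lay on the other side of the control at 4 h. It was measured near the background, with signals of 191 in the control, 72.3 at 4 h, 345 at 20 h and 259 at 32 h, where the lowest signals well above background were 40.9, 29.7, 40.4 and 47.3. The 4 h array was the lowest and the 20 h array the highest. The log2 ratio was -1.12 ± 0.26 at 4 h (2.18-fold lower), or -1.29 relative to the median of all probes, and 6.20% of measured probes lay at or below it. With normexp background correction, another model of the background, it was -0.55. At 20 h and 32 h it was 0.52 ± 0.22 and 0.26 ± 0.23. *Mxd3* was thus 3.13-fold lower at 4 h than at 20 h and 2.61-fold lower than at 32 h. With normexp these folds were 1.87 and 1.68, and with spike-in scaling 4.75 and 3.85.

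*Mxd4*, a Max partner known from resting and differentiated cells, followed the direction of *Mxd3* with smaller values. Probe 1 had signals of 1379 in the control, 879 at 4 h, 2032 at 20 h and 1754 at 32 h, and probe 2 had 292, 178, 437 and 425 in that order. The 4 h array was the lowest with both probes, before and after scaling. The log2 ratios at 4 h were -0.37 ± 0.20 and -0.43 ± 0.21, which is -0.54 and -0.60 relative to the median of all probes, and neither reached 2-fold under any of the 6 scalings. At 20 h they were 0.23 ± 0.20 and 0.25 ± 0.21, and at 32 h 0.17 ± 0.20 and 0.36 ± 0.21.

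*Mycn* and *Mycl1*, relatives of *Myc* with narrower ranges of tissues, and *Mxi1*, another repressor partner of Max, gave no ratio. *Mycn* had signals of 10.4 in the control, 7.36 at 4 h, 10.1 at 20 h and 12.7 at 32 h, and *Mycl1* had 11.0, 7.75, 10.4 and 13.2 in that order. *Mxi1* had 12.1, 14.3, 11.4 and 14.5, again in that order. All were under the lowest signal well above background on their array, which bounds what these probes could show and does not show that the genes were silent.

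**Figure D2:**
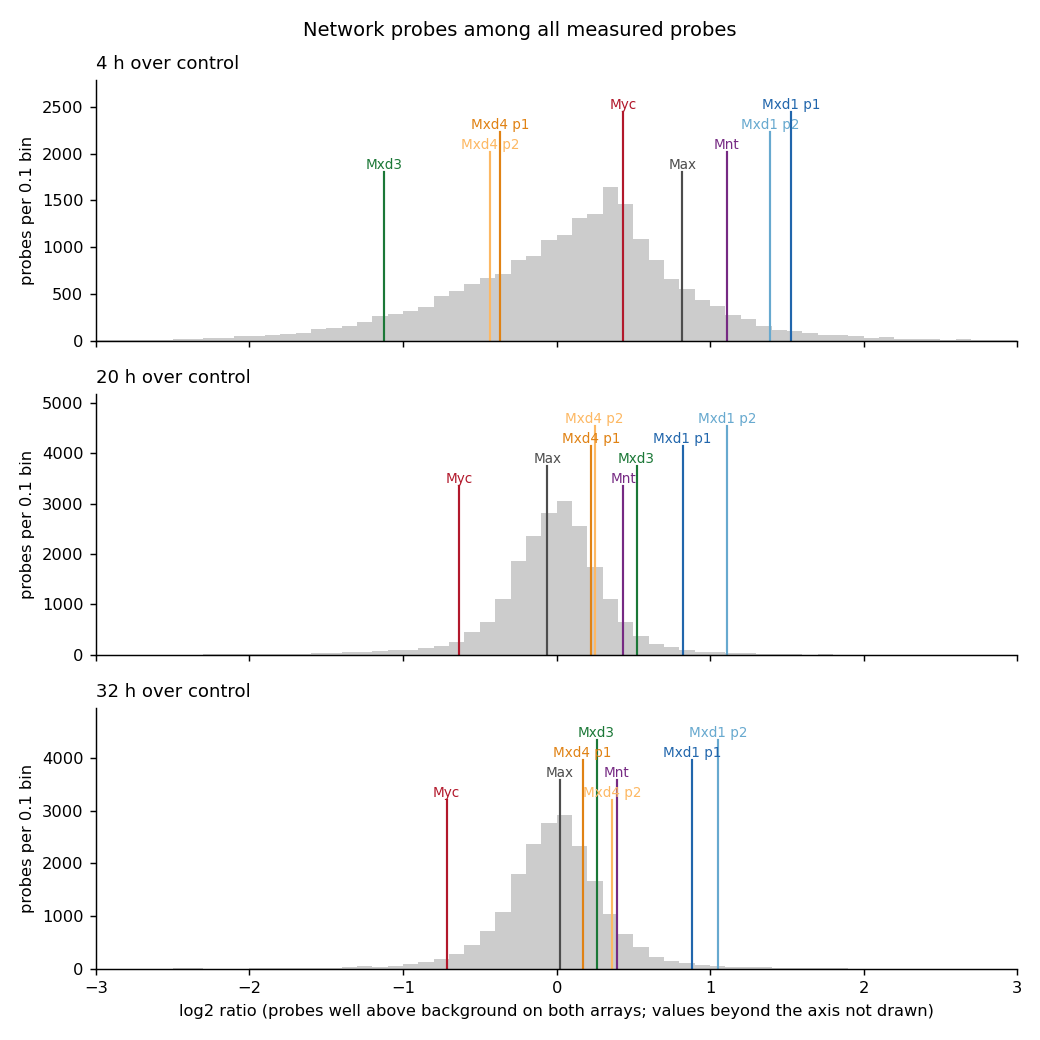
Number of measured probes (vertical axis) by log2 ratio to the control (horizontal axis, bins of 0.1) at 4 h, 20 h and 32 h, with the 8 member probes as vertical lines (p1 and p2 are probes 1 and 2; line heights carry no value). *Myc* lies inside the bulk at 4 h and in its lower tail at 20 h and 32 h, and both *Mxd1* probes lie in the upper tail at all 3 times.

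Differences between members on the same arrays do not depend on any constant scaling. At 4 h the log2 ratios of the *Mxd1* probes stood above that of *Myc* by 1.09 ± 0.29 and 0.96 ± 0.29, that of *Mnt* by 0.68 ± 0.29 and that of *Max* by 0.39 ± 0.29. *Mxd3* and the *Mxd4* probes stood at -1.56 ± 0.33, -0.80 ± 0.29 and -0.87 ± 0.30 from *Myc*. At 20 h all 7 probes were above *Myc*, those of *Mxd1* by 1.46 and 1.74, *Mxd3* by 1.16, *Mnt* by 1.07, those of *Mxd4* by 0.86 and 0.88, and *Max* by 0.57. The balance of *Mxd3* and *Mxd4* against *Myc* therefore had opposite signs at 4 h and at 20 h. At 32 h the order was similar, with 1.60 and 1.77 for *Mxd1*, 1.11 for *Mnt*, 0.98 for *Mxd3*, 0.88 and 1.08 for *Mxd4* and 0.74 for *Max*. These 7 differences at each late time share the *Myc* probe, so its single reading enters all of them. Among the repressor partners, *Mxd1* probe 1 stood above *Mxd4* probe 1 by 1.89 at 4 h but by 0.59 at 20 h and 0.71 at 32 h, an unequal change that constant scaling cannot alter.

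**Figure D3:**
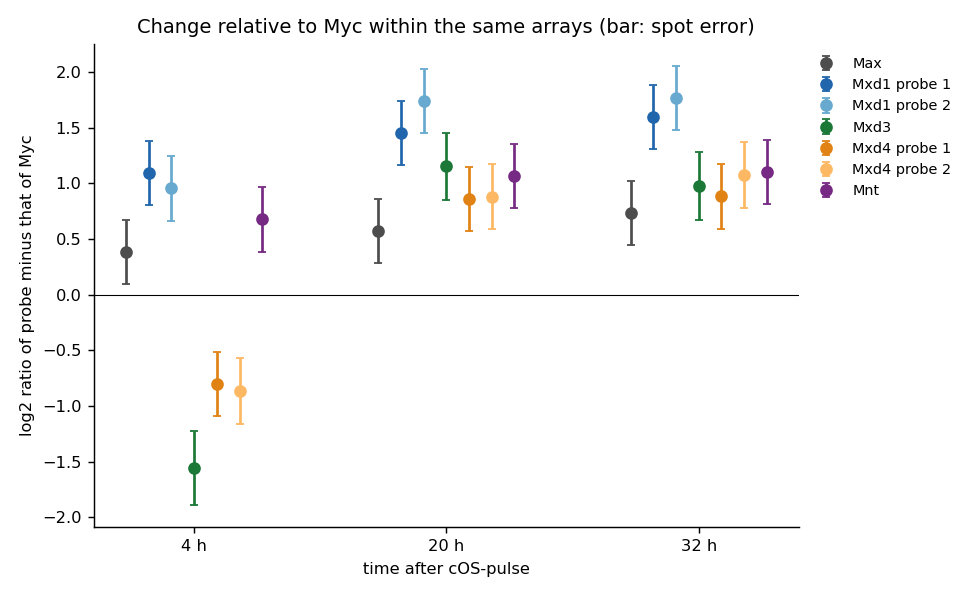
Log2 ratio to the control of each member probe minus that of *Myc* (vertical axis) at 4 h, 20 h and 32 h, with the spot error as bars. *Mxd3* and both *Mxd4* probes lie below *Myc* at 4 h (-1.56, -0.80 and -0.87), and all 7 probes lie above it at 20 h and 32 h.

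Between 20 h and 32 h the members differed little. No member probe was 2-fold higher or lower at 20 h than at 32 h, against 0.88% and 1.88% of all probes. Of the 20247 probes measured on both arrays, as the members were, 39 were higher and 91 lower. The log2 ratios of 20 h over 32 h were 0.08 for *Myc*, -0.08 for *Max*, -0.06 and 0.06 for *Mxd1*, 0.06 and -0.11 for *Mxd4*, and 0.04 for *Mnt*, each below its spot error of about 0.20. *Mxd3* had 0.26 ± 0.22, the one value above its spot error.

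**Figure D4:**
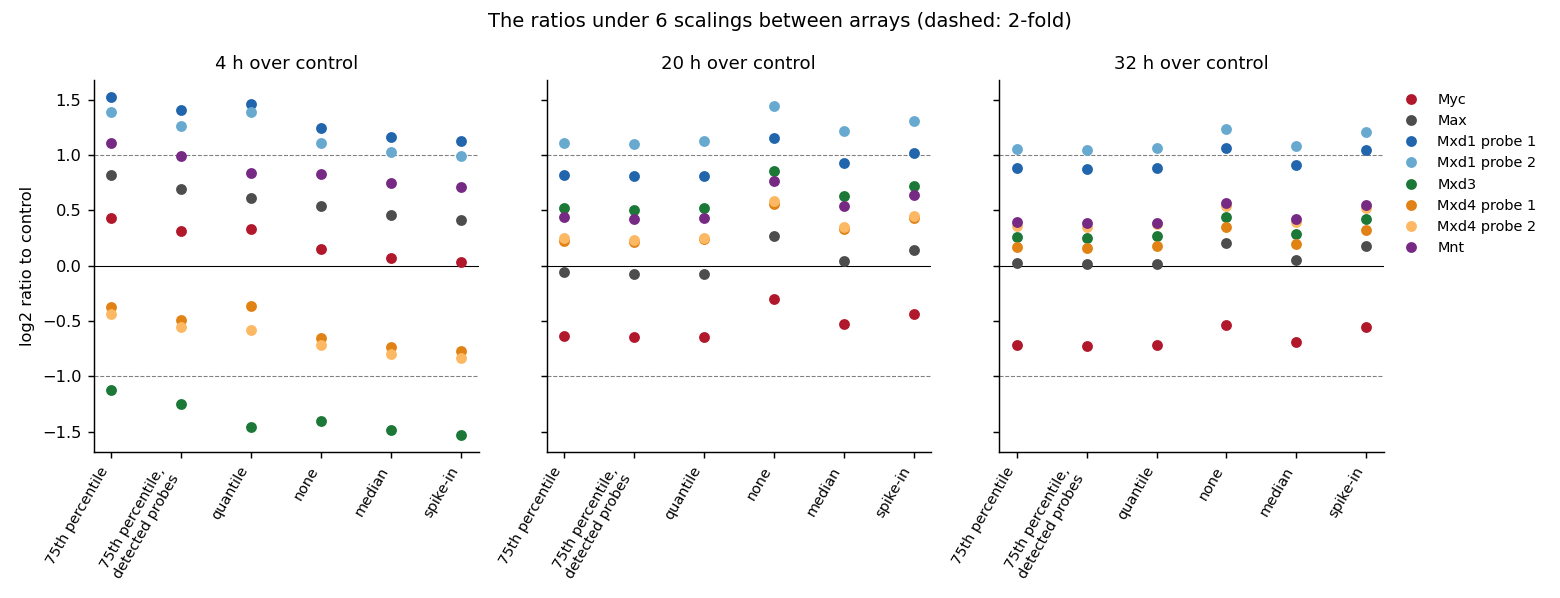
Log2 ratios to the control (vertical axis) of the 8 member probes under 6 scalings between arrays (horizontal axis), at 4 h, 20 h and 32 h; dashed lines mark 2-fold. The order of the members changes little along each panel, *Myc* at 4 h comes within 0.031 of 0 with spike-in controls, and *Mnt* at 4 h passes 2-fold with the 75th percentile of all probes only.

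Genes with a pattern near that of each member were sought by the Euclidean distance over the 3 log2 ratios to the control, as a description over 4 arrays. The search covered 16704 probes of named genes outside the network, each well above background on all arrays. Nearest to *Myc* (0.43, -0.63, -0.72) lay, among others, *Lrrfip1* at a distance of 0.048 and *Utp20* at 0.069. *Fnip2* lay nearest to *Mxd1* probe 1 at 0.117, *Slc12a2* to *Mxd3* at 0.090, *Herc1* to *Mxd4* probe 1 at 0.026, *Efnb2* to *Mnt* at 0.039, and *Gm13247* was among the nearest to *Max*. The larger distances of *Mxd1* and *Mxd3* mean that fewer of these probes had ratios like theirs.

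Genes that work around the network were read as lists, with 1 probe per gene, the brightest. The list of genes that Myc induces held 84 genes, 83 of them measured. At 4 h, 16 were at least 2-fold higher and 2 lower (11.1% and 8.13% of all probes), the median log2 ratio was 0.53 against 0.17 for all probes, and 61 of 83 lay above that overall median. *Mthfd2*, a mitochondrial folate enzyme, had a log2 ratio of 2.66, and *Slc3a2*, a subunit of amino acid transporters, had 2.57. The nucleolar helicase *Ddx21* had 2.12, with 0.96 on its other probe, and the Ran exchange factor *Rcc1* had 2.10. *Gart*, a purine synthesis enzyme, had -1.35 but 0.02 on its other probe, and the replication helicase subunit *Mcm5* had -1.02. A link between these genes and the level of *Myc* was not tested. At 20 h and 32 h the medians were -0.27 and -0.27, and 71 and 75 of the 83 genes lay below the overall median. Against the control, 1 and 4 were 2-fold lower (3.3% and 2.59% of all probes). Of these *Slc7a5*, an amino acid transporter, had -1.29 and -1.64, with 0.12 and 0.10 on its other probe, and *Id2*, an inhibitor of other helix-loop-helix factors, had -1.23 at 32 h.

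The list of genes that Myc represses (26 measured) had genes on both sides of the control. At 4 h, 7 were at least 2-fold higher and 4 lower, where all probes had 11.1% and 8.13%, with a median of 0.50. This median was near the 0.53 of the induced genes. The lists of the Mlx branch and of other E-box factors, given below, had 0.58 and 0.65. *Cdkn1a*, the cell cycle inhibitor p21 and a p53 target, had 3.57 on its brightest probe at 4 h and 1.30 and 1.32 at 20 h and 32 h. Its probe 2 gave bounds of 2.55, 1.29 and 1.385, but its probe 3 had 1.97, -0.63 and -0.49. At 4 h the stress-responsive *Ndrg1* had 2.65, the transcription factor *Klf4* 2.11 and the growth arrest gene *Gadd45a* 1.84. The matrix protein *Thbs1* had -1.86, the caveolar coat protein *Cav1* -1.67, the growth factor receptor *Pdgfrb* -1.35 and the inhibitor *Cdkn1b* -1.02, with -0.59 on its other probe. That other *Cdkn1b* probe had 2.09 at 20 h and 0.33 at 32 h, where the brightest had 0.27 and 0.27. The median of the list was -0.24 at 20 h, with 1 gene higher and 5 lower on the brightest probe (*Thbs1* -1.65, *Cav1* -1.16), where all probes had 1.35% and 3.3%. At 32 h it was -0.03, with 2 higher and 3 lower (*Ndrg4* 1.04, *Thbs1* -1.38, *Klf4* -1.13), where all probes had 2.06% and 2.59%. A further list held G1 inhibitors, cyclins, cyclin-dependent kinases and E2F factors, and partly overlapped the lists of induced and repressed genes. *Cdkn1a*, with 3.57 at 4 h, was not in this list. Of its 15 measured genes, read on the brightest probe, 7 were 2-fold lower (8.13% of all probes) and none higher (11.1%) at 4 h. The median was -0.84, and *E2f3* passed 2-fold on its dimmer probe only (1.48). *Rbl1*, the pocket protein p107, had -2.28, the inhibitor *Cdkn2d* -2.03, and the cyclins *Ccnd1* and *Ccnd3* -1.49 and -1.23. At 20 h and 32 h the medians were 0.06 and -0.01, and *Ccnd1* stayed lower (-1.17 and -1.30).

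**Figure D5:**
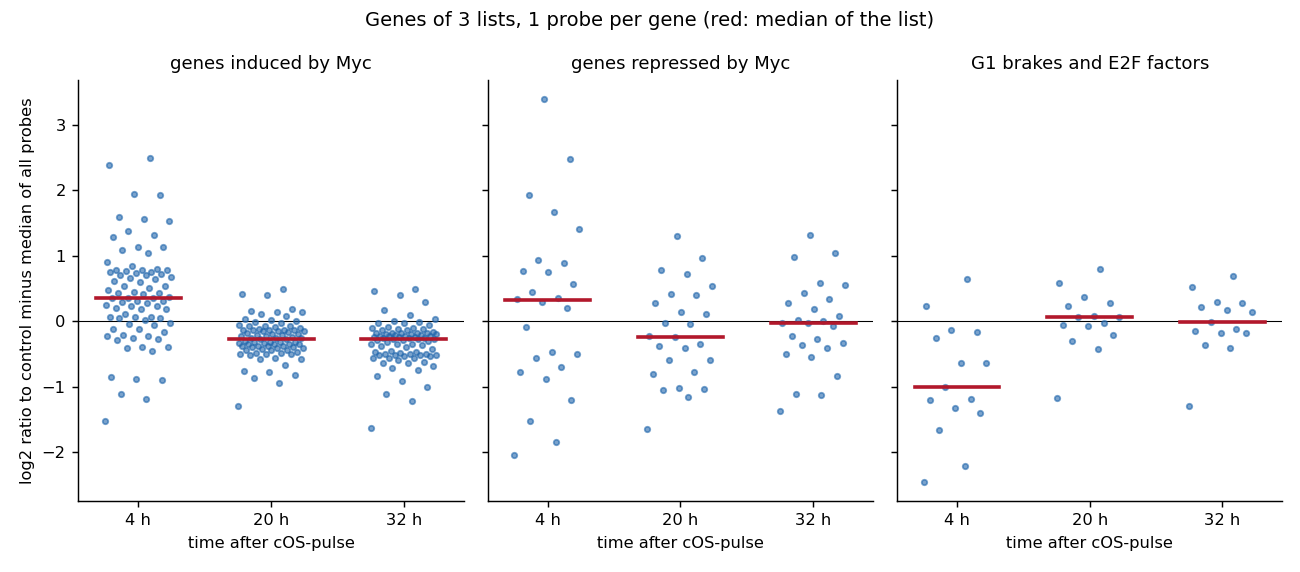
Log2 ratio to the control minus the median of all probes (vertical axis) for each measured gene of 3 lists, 1 probe per gene, at 4 h, 20 h and 32 h; red lines are the medians of the lists. The induced genes lie mostly above 0 at 4 h and below it at 20 h and 32 h, with medians of 0.36, -0.26 and -0.27. The repressed genes spread both ways, with medians of 0.33, -0.23 and -0.03. The panel titled G1 brakes and E2F factors also holds G1 cyclins and cyclin-dependent kinases, and 13 of its 15 genes lie below 0 at 4 h.

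None of the 16 Sin3, NCoR and histone deacetylase genes through which Mxd and Mnt act was 2-fold from the control on its brightest probe at 4 h, 20 h or 32 h, where 11.1%, 1.35% and 2.06% of all probes were higher and 8.13%, 3.3% and 2.59% lower. Their median at 4 h was 0.0013. Among their dimmer probes, *Arid4b* probe 2 was at least 2-fold higher at 4 h (bound 1.29) and *Arid4a* probe 3 at least 2-fold lower at 4 h and 20 h (bounds -1.002 and -1.007). Of 21 Myc cofactors, 2 were higher at 4 h on their brightest probe, the elongation factor cyclins *Ccnt2* (1.57) and *Ccnt1* (1.09), and the median was 0.09. Among dimmer probes of the others, *Cdk9* probe 3 was higher at 4 h (1.0013). *Trrap* probe 2 was lower at 4 h, 20 h and 32 h (bounds -2.44, -2.61 and -2.23). In the Mlx branch, whose proteins share E-boxes and partners with the network, *Mga* had 0.67, *Mlxip* 0.61, *Mlxipl* 0.55 (1.39 on its other probe) and *Mlx* -0.0011 at 4 h. Of 10 other helix-loop-helix factors that bind E-boxes, with or without a leucine zipper, 1 was higher at 4 h, *Arntl* (1.07), a clock factor without the zipper. *Srebf2* passed 2-fold at 4 h on its dimmer probe only (1.25). Among the 24 genes for turnover of the Myc protein that were measured on both arrays, 3 were higher at 4 h, the kinase *Pim3* (1.92) and the deubiquitinases *Usp36* (1.41) and *Usp37* (1.12). The 3 lower ones were the mitotic kinases *Plk1* (-3.24) and *Aurka* (-1.57) and the ubiquitin ligase subunit *Btrc* (-1.49, with 0.51 on its other probe). On the brightest probes, that of turnover alone among these lists had 2-fold changes at 32 h, *Usp37* (1.65) and the kinase *Pim1* (1.05). Of 21 regulators of *Myc* transcription, read on the brightest probe, the activators *Fubp1* (1.39) and *Nfkb1* (1.26) were higher and *Rbl1* lower at 4 h. None was 2-fold from the control at 20 h or 32 h on that probe. Dimmer probes of other regulators did pass 2-fold. *Tcf7l2* probe 3 had -2.22, -1.07 and -1.35 at 4 h, 20 h and 32 h, where its brightest probe had -0.07, -0.40 and -0.31. At 4 h *Tcf7l2* probe 2 had -1.98, *Lef1* probe 2 -1.04, *Elavl1* probe 2 2.09 and *Nme1* probe 3 1.08.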

How the data were processed

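The authors deposited, per array, background-subtracted spot intensities (one-color, Cy3), read per the submitters' processing notes with Feature Extraction 10.7.3.1, and a value table that differs from these intensities by 1 constant factor per array. From the deposited intensities, spots flagged as outliers were left out, log2 signals were averaged per probe, and each array was scaled by subtracting its 75th percentile. Detection required the flag for a signal well above background on 50% or more of the spots of a probe, and where 1 array of a pair detected it the ratio was a bound. Counts used a threshold of 2-fold, and percentages of all probes take the probes detected on at least 1 of the 2 arrays. These percentages therefore include dim probes that gave a bound only. SAM, named in the methods, could not be run on 1 array per condition. From each list, genes at least 2-fold from the control were named, at most 4 each way at 4 h and 2 each way at 20 h and 32 h, and the 4 measured genes of the Mlx branch were all given. A result that needs an item withheld for evaluation is not reported here. The members and lists were chosen with earlier results of these data known. The alternatives were 5 other scalings, normexp background correction (offset 50), other detection rules, flagged spots kept, the deposited table, other rules for probes of a gene, and thresholds of 1.5-fold and 3-fold. The steps were tested on simulated data. Python 3.11.15, numpy 2.4.6, pandas 2.3.3, R 4.3.3 and limma 3.58.1 were used.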

Additional observations from a re-analysis of the deposited data

Results flagged for a closer look

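Of the network, 3 genes lay on opposite sides of the control at 4 h and at a later time, each by more than the spot error at both times with the 75th percentile scaling. The difference was not tested, since each condition had 1 array. For *Myc* the log2 ratio at 4 h exceeded that at 20 h by 1.07 and that at 32 h by 1.15. With spike-in scaling these differences were 0.46 and 0.59, without scaling 0.45 and 0.69, and with scaling by the median 0.60 and 0.76. The *Myc* ratio at 4 h was within its spot error under all of these (0.031, 0.15 and 0.072). For *Mxd3* the ratio at 4 h minus that at 20 h was -1.64, and minus that at 32 h it was -1.38. With normexp these were -0.90 and -0.75, with the ratio at 32 h (0.20) within its spot error. For *Mxd4* probe 1 the ratio at 4 h minus that at 20 h was -0.60. For *Mxd4* probe 2 the differences were -0.68 against 20 h and -0.80 against 32 h. With spike-in scaling these 2 were -1.28 and -1.36, with scaling by the median -1.15 and -1.19, and without scaling -1.29 and -1.25. Probe 1 against 20 h had -1.20, -1.06 and -1.21 under the same scalings. All of these passed 2-fold, but none did with quantile normalization or the 75th percentile of probes detected on all arrays. With normexp the *Mxd4* ratios at 20 h, 0.18 and 0.12, were within their spot errors. All of these ratios share the control array.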

How the results depend on the processing

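With spike-in scaling, 1 probe (*Mxd1* probe 1) was at least 2-fold higher at 4 h in place of 3 (5.48% of all probes). In place of 1, 2 probes were higher at 20 h and at 32 h (2.27% and 2.97% of all probes). Without scaling, 2 were likewise higher at 20 h and at 32 h (3.36% and 3.09% of all probes). With normexp background correction 0 probes were lower at 4 h (*Mxd3* at -0.55), against 4.64% of all probes. At 32 h 0 were higher (*Mxd1* probe 2 at 0.97), against 0.92% of all probes. At 1.5-fold, 2 were higher and 1 (*Myc*) lower at each late time (4.43% and 7.56% of all probes at 20 h, 5.81% and 7.14% at 32 h), and at 3-fold 0 were higher and 0 lower at 4 h, with 0 higher at 20 h and 0 at 32 h (of all probes 4.28% and 2.55% at 4 h, 0.353% and 0.792% higher later). Over all probes, 2671 were higher and 1949 lower at 4 h, but 1313 and 3824 with spike-in scaling. No value in these comparisons past its threshold changed sign. Of the other values of single probes and lists, 483 moved by less than their error or limit and 75 by more. The cause of these shifts was not tested. No paired analysis was possible because each condition had 1 array. Signals near background limit *Mxd3* and leave *Mycn*, *Mycl1* and *Mxi1* without a ratio.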
